A study of Mus musculus with 24 samples.

Results

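Hippocampal gene expression was compared between Aged MSK1 kinase-dead (MSK1 KD) mice and Aged wild-type (WT) mice that had both been kept in standard housing. The libraries were chosen by their titles and by whether the study kept them: KDSH samples 1, 3, 8, 18 and 24 against WTSH samples 2, 5, 19 and 23, which is 9 of the 24 libraries of the series. Each library held poly(A) RNA from 1 mouse of 21 to 23 months. KDSH mice were homozygous for a knock-in of the endogenous MSK1 gene that replaces Asp194 of the kinase with alanine (D194A), and WTSH mice carried the unmutated gene. Both groups were on a C57-Bl/6J background after backcrossing from C57-Bl/6N, and the homozygous and WT mice were bred as separate lines, so that the mutation and other differences between the lines cannot be told apart here. The mutation was present in every cell from conception. Enriched mice (WTEE and KDEE, 6 libraries each), moved to enriched cages at 18 months, entered the fit to estimate the spread and are used below as other mice in which the same genotypes were compared. KDSH sample 6 and WTSH samples 4 and 7, which the study left out, were not among the 9.

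MSK1 is a nuclear kinase that is switched on by the MAP kinases ERK and p38, for example after brain-derived neurotrophic factor (BDNF) binds its receptor TrkB. Once active it phosphorylates the transcription factor CREB and histone H3, and in neurons it has been linked to transcription after synaptic activity. It carries an N-terminal kinase domain that acts on substrates and a C-terminal domain that activates the first. Aspartate of the DFG motif binds the magnesium ion that holds ATP in place, and its loss leaves that kinase domain without catalytic activity.

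The codon exchanged in MSK1 KD mice is shown because it is the only designed difference between the groups. It lies in Rps6ka5, the gene of MSK1 (ENSMUSG00000021180, GRCm38 chr12:100548439-100726983, minus strand), in coding exon 5 of the 18 exons of the annotated transcript, at chr12:100616030-100616032. The reference coding sequence around it, read from the GENCODE transcripts of GRCm38 on the coding strand, was as follows, with the codon of Asp194 in capitals. The codon opens the first of 2 DFG motifs among the 863 codons, and the second DFG starts at residue 629 in the C-terminal domain.
Rps6ka5 codon 194: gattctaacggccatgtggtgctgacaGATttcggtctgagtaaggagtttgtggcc

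The level of the mutated gene's own mRNA did not differ detectably. Rps6ka5 was measured at 1016, 1049, 1198 and 1212 normalised counts in WTSH samples 2, 5, 19 and 23, and at 1166, 1136, 1139, 1190 and 1157 in KDSH samples 1, 3, 8, 18 and 24, where a normalised count is a read count scaled to a common effective library size. Every KDSH library lay within the WTSH range. The log2 fold change, written throughout as MSK1 KD over WT, was 0.05 with a 95% interval from -0.18 to 0.28 (edgeR quasi-likelihood test, p = 0.655, and exact two-sided permutation p = 0.365 over 4 and 5 libraries). A codon exchange is not visible in counts per gene, so this level does not check the genotype of any library. Exons of Rps6ka5 overlap those of Gm49703, and reads were counted without regard to strand.

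The relatives of MSK1 also had estimates close to 0. MSK2 (Rps6ka4), the closest homologue, which shares substrates with MSK1, had 2031 to 2274 normalised counts in WTSH and 1892 to 2210 in KDSH libraries, a log2 fold change of -0.0005 with an interval from -0.13 to 0.13. On the scale of normalised counts per kilobase of exon, Rps6ka4 stood at 592.1 in WTSH and 591.9 in KDSH, and Rps6ka5 at 93.8 and 97.0. The RSK kinases, which ERK also activates, had log2 fold changes of -0.02 (Rps6ka1), 0.05 (Rps6ka2), 0.05 (Rps6ka3) and 0.05 (Rps6ka6). Rps6ka4 and Rps6ka1 overlap exons of other gene models. For all 6 kinases the 95% interval lay inside a change of 0.38 on the log2 scale, the fold threshold used for calls.

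**Figure D1:**
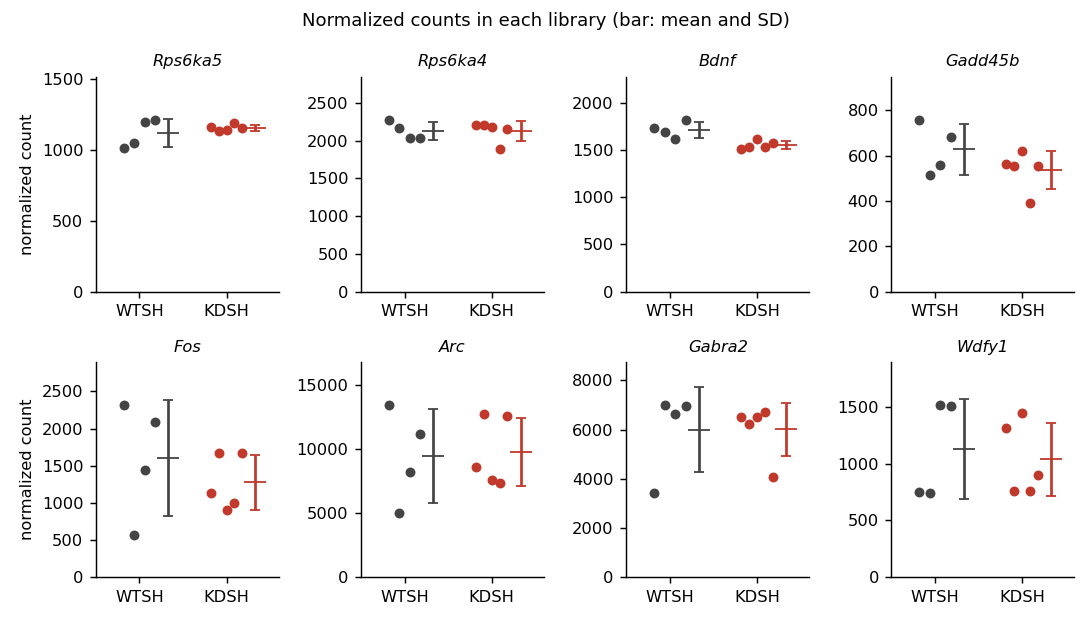
Normalised counts of 8 genes in each WTSH (grey) and KDSH (red) library, with a linear axis from 0 in each panel and the mean and SD beside the points. Rps6ka5 spans 1136 to 1190 in KDSH inside the WTSH range of 1016 to 1212, 4 of 5 KDSH libraries lie under the lowest WTSH library for Bdnf, and Gabra2 and Wdfy1 fall at separated levels inside both groups.

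Across the transcriptome no gene passed the test. Of 20187 genes tested, 0 (0%) were called at an adjusted p under 0.05 with an absolute log2 fold change over 0.38, and the smallest adjusted p was 1. An unadjusted p under 0.05 was given by 202 genes, which is 1% of those tested, and the smallest was 0.00048, for 1700025F24Rik. DESeq2 on the same 21 libraries also called 0 genes and gave 374 of 37779 with an unadjusted p under 0.05. All 5 KDSH libraries were above all 4 WTSH libraries in 47 genes (0.233%), and all were below in 83 genes (0.411%). Of the splits of 9 libraries into 4 and 5, a share of 0.0159 separates the groups fully in 1 direction or the other. The counts of p values rose from 540 between 0 and 0.1 to 3119 between 0.9 and 1. Evenly spread p values would put a share of 0.05 under 0.05, and this contrast gave fewer. The reason was not tested. Genes of uncertain class (TEC in the annotation) made up 4.08% of the genes tested and 8.42% of the 202, while protein-coding genes made up 76.4% and 56.9%.

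By this fit, which gave few small p values, the group sizes could have shown changes of moderate size in well-expressed genes. Among 13577 genes with a mean of at least 100 normalised counts over the 9 libraries, the median standard error of the log2 fold change was 0.102 and the median half-width of the 95% interval was 0.21, a 1.16-fold change, with an interquartile range of 0.16 to 0.29. In 10690 of these genes (78.7%) the whole interval lay inside 0.38, a change smaller than the fold threshold, and in 13402 (98.7%) it lay inside 1, a doubling or halving. To be called, the change of a gene that was alone in passing had to reach 0.65 on the log2 scale, 1.57-fold, at the median standard error (interquartile range 0.49 to 0.89). A true change of 0.74, or 1.67-fold, would have been called with 80% power at that standard error. For a gene chosen in advance and tested alone at 0.05, the change found with that power was 0.30. The estimates themselves were mostly smaller, with a median absolute log2 fold change of 0.040 and a 90th percentile of 0.13.

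Precision followed expression. In the 7934 genes with a mean of at least 1000 normalised counts the median half-width was 0.18, the change needed for a lone call was 0.56 (1.47-fold), and the interval lay inside 0.38 in 90.9%. Between 100 and 1000 the median half-width was 0.27 and the change needed was 0.81, with 61.6% of intervals inside 0.38. Between 20 and 100 these medians were 0.51 and 1.57, and under 20 they were 0.86 and 2.64, a 6.23-fold change. A change under these sizes in a gene of low counts was thus not detectable with 4 and 5 libraries. The fit took its spread from all 4 groups, at a common biological coefficient of variation of 0.172 over all genes and a median of 0.112 in well-expressed genes. A fit to the 9 libraries alone gave a narrower median half-width of 0.17, 299 of 18986 genes with an unadjusted p under 0.05 and 0 calls. The sizes given above thus belong to the fit over 4 groups and depend on which libraries set the spread.

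**Figure D2:**
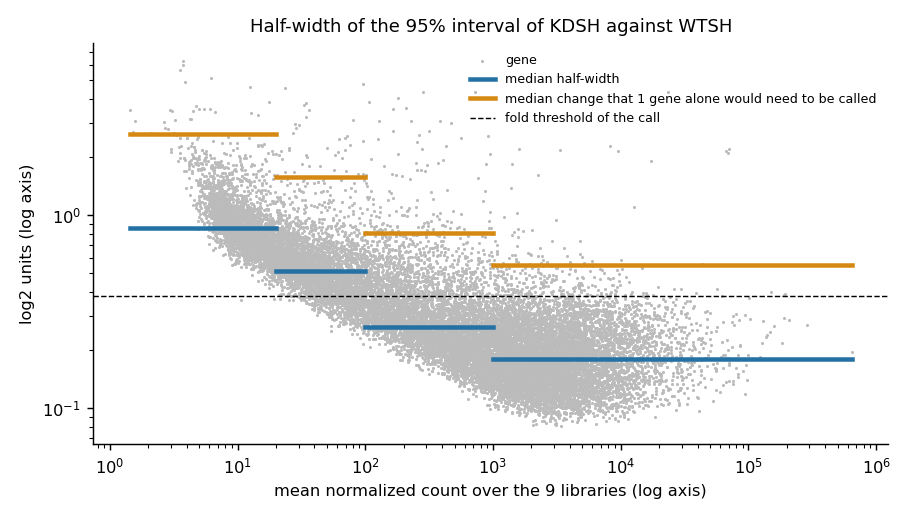
Half-width of the 95% interval of the log2 fold change (vertical log axis, log2 units) against the mean normalised count over the 9 libraries (horizontal log axis), each grey point 1 gene. Blue lines give the median half-width of each expression class, from 0.86 under 20 counts to 0.18 at 1000 or more, orange lines the change that a gene alone would need to be called, and the dashed line the fold threshold of 0.38.

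Read depth was 46711381 to 51992394 counts on genes in WTSH and 40066727 to 48985101 in KDSH, and 4 of 5 KDSH libraries were below the lowest WTSH library (medians 48427422.5 and 42026342, exact permutation p = 0.0635). The part of depth in the differences below was not tested. Hippocampal identity was visible in every library. The summed share of 15 markers of hippocampal subfields, in CPM (counts relative to the total of the library), was 938.4 to 1101 in WTSH and 940.3 to 1199 in KDSH, with the granule cell factor Prox1 at 3060 to 5291 and the CA1 gene Wfs1 at 5344 to 10360 normalised counts over the 9 libraries. Yet 3 libraries stood apart in markers of other tissues or in structural RNA gene models. WTSH19 had 6345 CPM on 12 choroid plexus markers against 196.4 to 307.5 in the other 8 libraries, KDSH8 had 245.1 on 8 pituitary markers against 2.02 to 9.23, and WTSH2 had 25740 on structural RNA gene models against 355.4 to 5554. The median log2 fold changes of these 3 lists are therefore given below with and without the library concerned.

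Large fold changes rested on single mice. Of the well-expressed genes, 118 had an absolute log2 fold change over 0.38 and 45 had one over 1, with 42 lower and 3 higher in KDSH. The highest of the 9 libraries was WTSH19 in 33 of these 45, WTSH2 in 9, KDSH8 in 2 and KDSH1 in 1, and in each gene it held at least 3.17 times the second highest. Transthyretin (Ttr), the transport protein secreted by the choroid plexus, had 197400 normalised counts in WTSH19 and 232.6 to 3583 in the 8 others. All 12 choroid plexus markers were lower in KDSH by the estimate, 4 with an unadjusted p under 0.05, at a median log2 fold change of -2.93. Without WTSH19 that median was 0.03, with 6 above and 6 below 0. Growth hormone (Gh) had 6158 and the hormone precursor Pomc 4600 normalised counts in KDSH8, while Gh had 0 to 306.8 and Pomc 39.98 to 63.09 elsewhere, and the median of the 5 pituitary markers tested was 4.12 with KDSH8 and -0.24 without it. The 7 structural RNA gene models tested were all lower in KDSH, at a median of -1.47, and the median was 2.24 without WTSH2. The 1 gene highest in KDSH1 was the repeat-like model Gm10800, at 5344 against 932.8 in the next library. Without WTSH19, 15 well-expressed genes had an absolute log2 fold change over 1, of which 12 were among the 45. When WTSH2, WTSH19 and KDSH8 were left out together 32 had one, and 11 of these were among the 45.

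**Figure D3:**
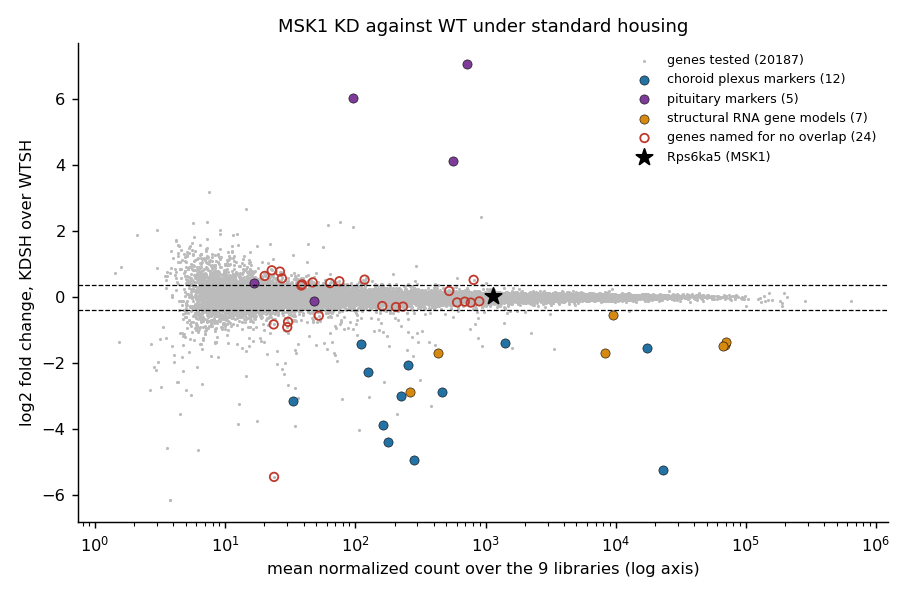
Log2 fold change of KDSH over WTSH (vertical axis) against the mean normalised count over the 9 libraries (horizontal log axis) for the 20187 genes tested. Choroid plexus markers (blue, 12) and structural RNA models (orange, 7) lie below 0 and 3 pituitary markers (purple) above 4, red circles are the 24 genes named for groups that did not overlap, the star is Rps6ka5 at 0.05, and dashed lines are drawn at 0.38 on either side.

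No member of the pathway that leads to MSK1 passed the test. Of 21 genes of the MAP kinase cascade, from the adaptor Grb2 and the Ras proteins to the kinases and their phosphatases, 11 were above and 10 below 0, with a median of 0.01, and 18 intervals lay inside 0.38. The median over all 20187 genes tested was -0.0001, with 10074 above and 10113 below. For 27 of the 32 lists used here the median changed sign in at least 1 of the 9 fits that left out 1 library, and for 24 of these 27 it lay between -0.10 and 0.05 with all libraries. The 5 lists that kept their sign included blood markers, at a median of -0.26, and meningeal markers, at -0.25. The log2 fold change of ERK1 (Mapk3) was 0.05 and that of p38α (Mapk14) 0.06, with intervals of -0.20 to 0.29 and -0.04 to 0.16. The Ras exchange factor Rasgrf1, which couples calcium to ERK, was at 0.08. The widest departure was Dusp1, a phosphatase that inactivates MAP kinases and is itself induced by CREB, with 1932, 714, 1603 and 1868 normalised counts in WTSH and 1274, 1384, 1049, 1060 and 1493 in KDSH. Its groups overlapped through WTSH5, the lowest library of all, and its log2 fold change was -0.29 (interval -0.71 to 0.13, exact permutation p = 0.333). Its exons overlap those of Ergic1.

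Substrates and partners of MSK1 were likewise close to 0. CREB (Creb1) had 2302, 2683, 2444 and 2485 normalised counts in WTSH and 2237, 2367, 2678, 2466 and 2446 in KDSH, and the groups overlapped over almost their whole range (log2 fold change -0.02, interval -0.16 to 0.12). Among 10 members of the CREB family and its coactivators, 8 were above and 2 below 0, between -0.11 for Crem, an inducible relative of CREB, and 0.04 for the acetyltransferase Ep300. Of 7 genes that encode MSK1 substrates, 3 were above and 4 below 0 and all 7 intervals lay inside 0.38. H3f3b, a gene of the histone variant H3.3, was at -0.09, and Atf1, the relative of CREB that MSK1 also phosphorylates, at 0.01. Transcript levels do not show whether these proteins were phosphorylated.

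BDNF, the neurotrophin upstream of MSK1 and a CREB target itself, had the most separated groups among the neurotrophins and their receptors. Bdnf was at 1737, 1689, 1617 and 1817 normalised counts in WTSH and at 1505, 1535, 1619, 1535 and 1576 in KDSH. Of the 5 KDSH libraries 4 were below the lowest WTSH library, and KDSH8 was 2 counts above it. The log2 fold change was -0.14 (SE 0.085, interval -0.32 to 0.03), with p = 0.11 by the quasi-likelihood test and an exact permutation p of 0.0317 unadjusted for the genes looked at. Bdnf overlaps exons of Gm45346. Its receptor TrkB (Ntrk2) was at 30290 to 37280 in WTSH and 31600 to 37510 in KDSH, a change of -0.03. The related ligand Ntf3 was at 0.14. Of 8 members tested, 2 were above and 6 below 0.

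Immediate early genes, which neurons transcribe within minutes of activity and many of which CREB controls, included several that varied widely between mice of the same group. They were read in 1 list with other CREB targets, such as neuropeptide genes. Of its 31 genes 22 were below and 9 above 0, at a median log2 fold change of -0.04, with 0 called, 0 without overlap and intervals inside 0.38 in 9. Fos had 2312, 571, 1442 and 2092 normalised counts in WTSH and 1131, 1670, 900, 996 and 1669 in KDSH. The KDSH values sat inside the WTSH range, in which the highest library had 4.05 times the lowest (log2 fold change -0.33, interval -0.96 to 0.29). Npas4, an activity-dependent factor that shapes inhibitory synapses, ranged 4.85-fold in WTSH, from 336.7 to 1632, and 1.82-fold in KDSH, from 830.2 to 1507, and its log2 fold change was 0.12. Arc, which drives AMPA receptor removal, was at 4978 to 13420 in WTSH and 7375 to 12740 in KDSH, a change of 0.05, and Egr1 was at 0.19.

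The extremes of this list fell mostly in 4 libraries. WTSH5 was the lowest of the 9 libraries in 10 of the 31 genes and KDSH18 in 15, while WTSH2 was the highest in 14 and KDSH8 in 9. The median of the list was -0.11 without WTSH19 and 0.02 without KDSH18. Gadd45b, a stress gene with a part in DNA demethylation, was at 757.8, 513.4, 557.2 and 684.0 normalised counts in WTSH and at 564.2, 554.8, 620.3, 393.2 and 553.1 in KDSH. Its groups overlapped, with KDSH18 the lowest of all, and the log2 fold change was -0.23 (interval -0.51 to 0.06, exact permutation p = 0.206).

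The promoters of 8 genes of the lists hold the full cyclic AMP response element (CRE) to which CREB binds. The sites of 4 genes known to be induced through CREB or by activity are shown as 30 bases of the gene's strand, from RefSeq promoters of GRCm38.p6, with TGACGTCA in capitals. They come from Btg2, an antiproliferative gene (chr1:134079303-134079332, minus strand, motif starting at -166 from the gene start), Dusp1 (chr17:26508597-26508626, minus strand, -143), the synaptic kinase gene Plk2 (chr13:110394971-110395000, plus strand, -62) and somatostatin, Sst (chr16:23890874-23890903, minus strand, -48).
Btg2: gttcccaataaTGACGTCAgtgagcgatga
Dusp1: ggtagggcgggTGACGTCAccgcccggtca
Plk2: agcgctcgccgTGACGTCAcgaggccccgc
Sst: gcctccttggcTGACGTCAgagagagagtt

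Genes with this motif had a median close to that of the others. TGACGTCA, which reads the same on both strands, occurred in 588 of 32851 promoter windows (1.79%) that ran from 250 bases before to 50 bases after a gene start. The median log2 fold change was -0.013 over 422 tested genes with the motif and -0.0037 over 12669 without it. Of the 422, 2 (0.474%) had an unadjusted p under 0.05, beside 1% of all genes tested. Groups were without overlap in 3 (0.711%) that were higher in KDSH and in 2 (0.474%) that were lower, beside 0.233% and 0.411% of all genes tested. The 4 genes printed above had log2 fold changes of -0.27 (Btg2), -0.29 (Dusp1), -0.03 (Plk2) and -0.15 (Sst), with intervals of -0.73 to 0.20, -0.71 to 0.13, -0.17 to 0.11 and -0.46 to 0.17. The 4 list genes with the motif that are not printed were at 0.07 (the synaptic vesicle gene Syn1), 0.02 (the kinase gene Braf), 0.003 (Arhgef7, an exchange factor of spines) and -0.06 (the endothelial receptor gene Flt1). A match of letters does not show that CREB was bound.

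Estimates for synaptic genes were small, and lay between -0.12 and 0.12 in the 4 synaptic lists. Their median half-widths were 0.2134 for glutamate receptor subunits, 0.2313 for postsynaptic, 0.2066 for presynaptic and 0.1976 for GABA-A receptor genes, close to the 0.2127 of all well-expressed genes. Of 20 glutamate receptor subunits 11 were above and 9 below 0, between -0.07 for the kainate receptor subunit Grik4 and 0.11 for Grik3, and 18 intervals lay inside 0.38. Gria1, the AMPA receptor subunit tied to long-term potentiation, had 43490, 46110, 46600 and 44050 normalised counts in WTSH and 49210, 50410, 42550, 45540 and 44060 in KDSH, with overlapping groups and a log2 fold change of 0.04 (interval -0.18 to 0.26). The NMDA receptor subunit Grin1 was at 0.01 (interval -0.14 to 0.17). Among 26 genes of the postsynaptic density and spines 15 were above and 11 below 0, and 25 intervals lay inside 0.38. PSD-95 (Dlg4) was at 0.05 and Camk2a, the most abundant kinase of the spine, at 0.01.

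Of 21 presynaptic release genes 19 were above 0, each by less than 0.1 on the log2 scale. Their median was 0.04 and their range -0.05 for complexin (Cplx1) to 0.09 for neurexin (Nrxn2), and without WTSH19 the median was -0.02. Synapsin (Syn1) had 33750, 29620, 19620 and 23070 normalised counts in WTSH and 31380, 31870, 32750, 20860 and 22440 in KDSH, with WTSH19 and KDSH18 lowest in their groups. Its exons overlap those of Araf. Of 12 GABA-A receptor subunits 7 were above and 5 below 0, and 10 intervals lay inside 0.38. Gabrg3 was at 0.12 (interval -0.07 to 0.30, exact permutation p = 0.095), with 3 KDSH libraries above the highest WTSH library.

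**Figure D4:**
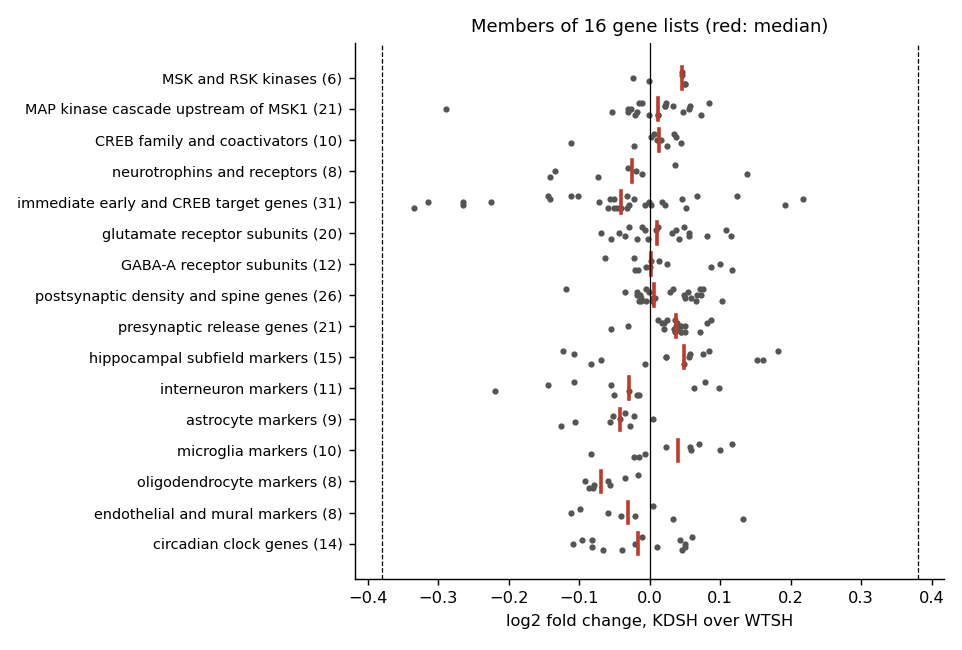
Log2 fold change of KDSH over WTSH (horizontal axis) for each member of 16 gene lists (rows, number of tested members in brackets), with the median as a red line and dashed lines at 0.38 on either side. The 230 points run from -0.33 to 0.22, and all 8 oligodendrocyte markers lie below 0. The 16 lists not drawn hold 27 of 114 members beyond 0.38, of which 23 are choroid plexus, pituitary or structural RNA genes.

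Markers of cell types gave no difference that passed the test. In bulk tissue fewer cells of a type and less RNA per cell cannot be told apart. Of the 15 subfield markers 10 were above and 5 below 0, from -0.12 for Bok and -0.11 for the dentate gene C1ql2 to 0.16 for the CA1 gene Fibcd1 and 0.18 for the calcium buffer Calb1. Their median was 0.05, and -0.04 without KDSH3. The CA2 gene Rgs14 had 4480 to 4917 normalised counts in WTSH and 4598 to 5991 in KDSH (log2 fold change 0.15, interval -0.02 to 0.33). Interneuron markers were above 0 in 3 and below in 8 of 11, with the GABA-synthesising enzyme Gad1 at -0.02 and neuropeptide Y (Npy) at -0.22 (interval -0.59 to 0.15). In Npy the highest library was WTSH2 at 2423, and the others ran from 1492 to 1902. Doublecortin (Dcx), a marker of newborn neurons, was at 834.2 to 1564 in WTSH and 954.8 to 1455 in KDSH.

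Glial lists moved with single libraries. All 8 oligodendrocyte markers were below 0, at a median of -0.07, and the median was 0.08 without WTSH19 and -0.17 without KDSH18, the library with the highest myelin RNA in each group. The summed share of these markers was 8812 CPM in WTSH19 against 5713 to 6153 in the other WTSH libraries, and 8180 in KDSH18 against 5462 to 6431 in the other KDSH libraries. Myelin basic protein (Mbp) had 142600, 136600, 196800 and 136900 normalised counts in WTSH and 137300, 154200, 124700, 174400 and 134100 in KDSH. Astrocyte markers were below 0 in 8 of 9, at a median of -0.04, with Gfap at -0.13 (interval -0.37 to 0.12). That median was 0.01 without WTSH19. Microglia markers were above 0 in 6 of 10, at a median of 0.04.

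Cst7, a cystatin of activated microglia, was at 33.96, 51.64, 63.31 and 41.06 normalised counts in WTSH and at 104.6, 65.13, 80.41, 109.5 and 27.01 in KDSH. The first 4 KDSH libraries were above every WTSH library and KDSH24 was the lowest of all, giving a log2 fold change of 0.70 (interval -0.02 to 1.42) and an exact permutation p of 0.159. Of the other genes of the disease-associated microglia list, Itgax was at 0.36 and Clec7a at 0.16, both highest in KDSH18, and Apoe, the lipid carrier, at -0.05. The 10 members split into 5 above and 5 below 0.

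No difference in the summed share of a list passed the test. Over 32 lists the smallest adjusted exact permutation p was 0.982. The smallest p that 4 and 5 libraries allow is 0.0159, so 1 list alone could not have passed adjustment over 32. The adjusted result therefore decides nothing about a single list. The difference was -1517 CPM for choroid plexus markers (exact permutation p = 0.54) and 8.17 without WTSH19, and for structural RNA models -4213 (exact permutation p = 0.81) and 2048 without WTSH2. Interferon-stimulated genes, which respond to type I interferon, were above 0 in 7 of 10 at a median of 0.02, and the median was -0.30 without KDSH8. Clock genes were above 0 in 6 of 14 and glucocorticoid receptors and targets in 5 of 8. Heat shock chaperones were above 0 in 2 of 8, oligodendrocyte precursor markers in 2 of 6 and endothelial and mural markers in 3 of 8, and 0 of their members had an unadjusted p under 0.05.

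The genes described next are those whose groups did not overlap, with a mean of at least 20 normalised counts, taking the 12 higher and the 12 lower in KDSH with the smallest unadjusted p. They were chosen for that separation, so it is no evidence for any of them, and at 0.233% and 0.411% of genes tested the separations were few. All had an adjusted p of 1 by the edgeR quasi-likelihood test and an exact permutation p of 0.0159, the smallest that 4 and 5 libraries allow.

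Most of the 12 genes higher in KDSH had low counts, with 9 below a mean of 100, and their log2 fold changes ran from 0.19 to 0.81. Rep15, which binds the trafficking GTPase Rab15, had 25.5, 19.9, 18.1 and 12.02 normalised counts in WTSH and 34.5, 25.6, 34.5, 30.5 and 36.4 in KDSH. KDSH3 and WTSH2 were almost equal, and the log2 fold change was 0.77 (SE 0.22, edgeR p = 0.00186, exact permutation p = 0.0159). Mterf1b, a mitochondrial transcription termination factor with a near-identical neighbour Mterf1a that can share its reads, was at 59.4, 70.5, 57.9 and 59.1 in WTSH and 80.4, 81.4, 89.8, 92.4 and 86.9 in KDSH. The highest WTSH library was WTSH5, and the promoter holds TGACGTCA. Catsperg1, an auxiliary subunit of the sperm calcium channel, was at 87.7 to 100.1 in WTSH and 109.3 to 154.2 in KDSH, a change of 0.53.

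Kctd9, a BTB domain protein, and Eps8l1, a relative of the actin regulator Eps8, were the higher genes with the most counts. Kctd9 was at 450.0, 491.6, 507.4 and 501.7 normalised counts in WTSH and 510.2, 524.5, 552.4, 614.1 and 574.3 in KDSH, with WTSH19 just below KDSH1, a 1.14-fold change (0.19 on the log2 scale, SE 0.071). Eps8l1 was at 448.7 to 786.0 and 806.4 to 1171 (0.52), and its exons overlap those of Gm15494. Smyd1, a histone methyltransferase of muscle, was at 38.1 to 62.6 in WTSH and 66.8 to 78.1 in KDSH (0.43). Abi3, an actin adaptor found in microglia, was at 30.8 to 35.8 and 37.2 to 50.5 (0.39), and overlaps exons of Gngt2, Phospho1 and Zfp652. The lectin gene Clec9a of dendritic cells (0.57, overlapping Clec1b) and Mcemp1, a membrane protein of mast cells (0.64), had at most 37.6 and 28.2 normalised counts in any library. The remaining 3 were the unclassified models Gm38366 (0.81) and Gm37844 (0.45, overlapping Kbtbd11) and the antisense transcript Gm15860 (0.35, overlapping Bcl7a).

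The 12 genes lower in KDSH included 7 with a mean of at least 100. 1700025F24Rik, a long intergenic RNA on chromosome 10, had the smallest p of all genes tested. It was at 32.9, 42.7, 38.0 and 43.1 normalised counts in WTSH and at 31.0, 22.1, 18.8, 19.04 and 25.8 in KDSH. KDSH1 came close to WTSH2, and the log2 fold change was -0.75 (SE 0.18, edgeR p = 0.00048, exact permutation p = 0.0159). Cdk15, a little-studied member of the cyclin-dependent kinases, was at 31.8, 25.8, 30.8 and 36.1 in WTSH and 13.8, 13.96, 20.9, 14.3 and 24.7 in KDSH (-0.83, SE 0.28). Mmp19, a matrix metalloproteinase, was at 54.6 to 80.1 and 34.5 to 50.5 (-0.56), and shares exon positions with Gm47093 and Tmem198b.

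The better-expressed lower genes differed by small amounts. Scd3, a desaturase of fatty acids with close paralogues, was at 209.3 to 268.6 in WTSH and 169.1 to 203.4 in KDSH (log2 fold change -0.30). Klhl40, known from muscle thin filaments, was at 294.0, 228.4, 253.3 and 256.4 in WTSH and 224.1, 195.4, 217.2, 205.6 and 214.9 in KDSH (-0.29, SE 0.12, overlapping Gm47108). The metal transporter gene Slc39a8 was at 165.2 to 207.1 and 124.1 to 161.8 (-0.27). Tspan12, a tetraspanin of Norrin signalling (-0.17, overlapping Gm30270), the ribosome assembly kinase Riok1 (-0.16, overlapping Cage1), the mitochondrial transcription factor Tfb2m (-0.14) and the nucleoporin Ndc1 (-0.13) had KDSH levels of 0.892 to 0.915 times those of WTSH by the fit. The long noncoding 2310014F06Rik was at 32.1 to 57.9 and 12.8 to 26.4 (-0.91).

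Cdh3, the gene of P-cadherin, rested on WTSH19, the library rich in choroid plexus RNA. It had 192.7 normalised counts there and 4.25, 6.95 and 4.01 in WTSH2, WTSH5 and WTSH23, and every KDSH library had 0.95 to 1.17, under the floor of 3 counts. Its unadjusted p was 0.0224 with WTSH19 and 0.482 without. The other 23 named genes kept their direction when any 1 library was left out, as did Cdh3. Their choice fixed this, since groups without overlap stay on the same side whichever library is left out. Of the 24, 9 had an unadjusted p under 0.05 in all 9 of these fits: Rep15, Gm38366, Mterf1b, Mcemp1, Clec9a, Catsperg1, 1700025F24Rik, Cdk15 and Tspan12. These fits reuse the libraries that chose the genes and give no separate support for them. Of the 202 genes with an unadjusted p under 0.05, 31 stayed there in all 9 fits.

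The same genotypes in enriched cages gave the same measure in mice that had not chosen these genes. KDEE and WTEE did not overlap in 0.624% of the genes tested, and 1007 genes (4.99%) had an unadjusted p under 0.05 with 0 calls in edgeR. None of the 24 named genes was without overlap there, 12 had the same sign in both housings, and 12 had the opposite sign. Over all genes tested 50.7% had the same sign. Between the housings, the log2 fold changes of the 24 had a Pearson correlation of -0.482 and a Spearman correlation of -0.153. Over all genes tested these were -0.323 and -0.0365. An unadjusted p under 0.05 in the same direction was found for Klhl40 (log2 fold change -0.31 in enriched and -0.29 in standard housing), Cdk15 (-0.63 and -0.83), Mmp19 (-0.40 and -0.56) and Smyd1 (0.30 and 0.43). Their unadjusted p values in enriched housing were 0.00478, 0.0122, 0.0444 and 0.0497 by the edgeR test and 0.0108, 0.0368, 0.0952 and 0.0563 by the exact permutation test. None passed adjustment over all genes.

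Klhl40 was at 269.5 to 416.6 normalised counts in 6 WTEE and 210.6 to 287.1 in 6 KDEE libraries, and Cdk15 at 26.1 to 51.0 and 13.3 to 37.6. For both the ranges overlapped. Scd3 went the other way in enriched mice, at 0.20 (exact permutation p = 0.0173). The difference between the genotype effects of the 2 housings was tested for every gene by the same fit, and the smallest adjusted p was 0.441 among the named genes and 0.419 among all. Bdnf was at 1553 to 2275 in WTEE and 1435 to 1746 in KDEE, a log2 fold change of -0.16 (edgeR p = 0.036, exact permutation p = 0.108) beside -0.14 in standard housing. Gadd45b was at 594.8 to 805.1 and 418.7 to 608.2, with 5 of 6 KDEE libraries below the lowest WTEE library, a log2 fold change of -0.38 (edgeR p = 0.00399, exact permutation p = 0.00433) beside -0.23. Bdnf and Gadd45b are members of the activity list, which was drawn up with earlier results of these data known. Of the 31 genes of that list, 18 had the same sign in both housings, beside 50.7% of all genes tested. The median of the list in enriched housing was -0.12.

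**Figure D5:**
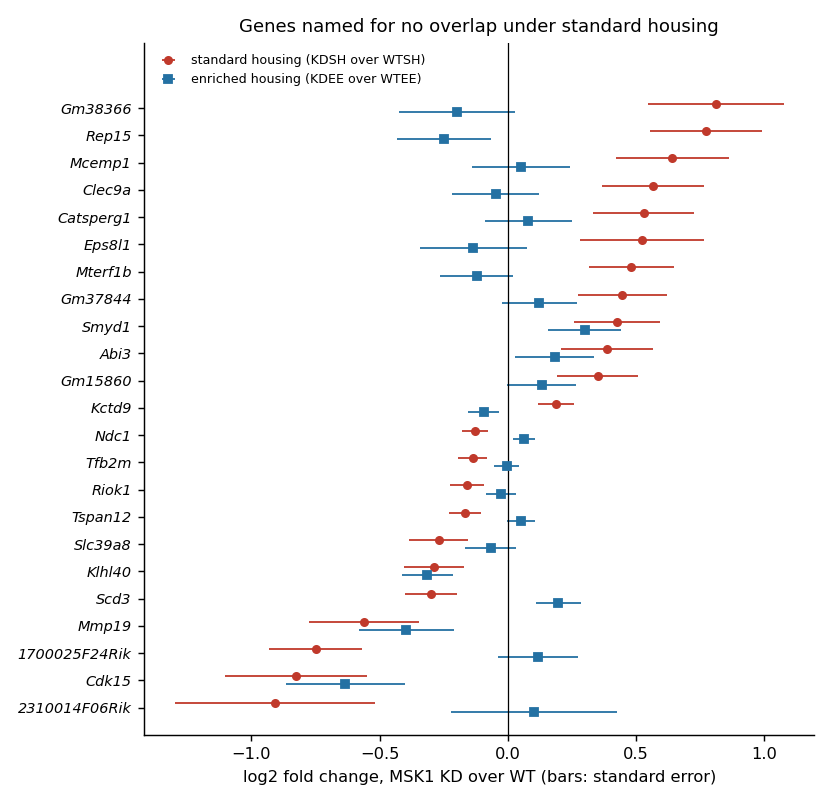
Log2 fold change of MSK1 KD over WT with its standard error for 23 of the 24 named genes (rows, Cdh3 not drawn), in standard housing (red circles, 4 WT and 5 KD libraries) and enriched housing (blue squares, 6 and 6). The red points are apart from 0 because the genes were chosen for it, while the blue points lie on both sides of 0, with Klhl40, Cdk15, Mmp19 and Smyd1 near their red points.

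Genes that could tell the 2 breeding lines apart were also read. Of 75 tested genes within 5 Mb either side of Rps6ka5, 31 were above and 44 below 0, at a median of -0.03, and 0 were without overlap. In that interval 1 (1.33%) had an unadjusted p under 0.05, Gm26839 at 0.0382, beside 1% of all genes tested. Gabra2, the α2 subunit of the GABA-A receptor, whose level differs between C57BL/6 substrains, was at 3435, 6984, 6617 and 6965 normalised counts in WTSH and 6502, 6243, 6503, 6704 and 4062 in KDSH. WTSH2 and KDSH24 were thus far below the others of their groups, and the log2 fold change was 0.001 (interval -0.58 to 0.58). The enriched mice were split too, with 1 of 6 WTEE libraries at 6497 and the others at 2886 to 4314, and KDEE libraries from 3061 to 9123.

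Wdfy1, another gene with a known substrain difference, was spread over separated levels in both groups. It was at 748.2, 738.9, 1515 and 1506 normalised counts in WTSH and 1318, 761.8, 1447, 762.6 and 900.7 in KDSH, and it shares exon positions with Mrpl44. Libraries high for Gabra2 were not always high for Wdfy1, since WTSH5 was at 6984 for Gabra2 and at 738.9 for Wdfy1. Genotypes at these loci were not read.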

How the data were processed

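Before deposit the authors trimmed the reads (Skewer), mapped them to GRCm38 (STAR 2.5) and counted them for each gene symbol (HTSeq 0.6.1p1). The deposited values are raw counts without normalisation. Libraries were made from poly(A) RNA with a kit that does not keep strand. Of 49568 symbols, 47206 (95.23%) matched 1 gene in GENCODE M21 (GRCm38), and promoters were taken from RefSeq (GRCm38.p6).

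The 21 libraries kept by the study were fitted in edgeR 4.0.16 (R 4.3.3) with TMM normalisation, the default filter on low counts and 1 mean for each of 4 groups, and the contrast KDSH minus WTSH was tested by quasi-likelihood. Calls needed a Benjamini-Hochberg adjusted p under 0.05 and a log2 fold change beyond 0.38 in either direction. Standard errors came from the fold change and the F statistic of each gene, and intervals from these at the degrees of freedom of the fit (median 21.07). The change for a lone call used 0.05 divided by the number of genes tested. Single values of KDSH and WTSH were compared by exact two-sided permutation over 126 splits, for which the smallest p is 0.0159. For the 6 KDEE and 6 WTEE libraries the same test has a smallest p of 0.00216. The p values measure the spread between mice, 1 library each, and the counts are not molecules, since PCR copies were not told apart, so floors cover counting error only.

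Named genes were Rps6ka5, members of the gene lists where a list is described and, of genes with a mean of at least 20 and no overlap between the groups, the 12 higher and the 12 lower with the smallest p. Gm10800 and Gm26839 fall outside this rule and were named after their values were seen. The comparison, its members and the lists were chosen with earlier results of these data known. The fits were tested on simulated counts first. The alternatives were DESeq2 1.42.0, limma-voom (limma 3.58.1), RLE size factors, 2 other filters, all 24 libraries, only the 9 compared, a robust fit and leaving out each of the 9 libraries. Those added after the data were seen were DESeq2 on 24 and on 9 libraries and leaving out WTSH2, WTSH19 and KDSH8 together. A few genes of the lists are counted in them and are not reported here by name.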

Additional observations from a re-analysis of the deposited data

Results flagged for a closer look

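In groups of 4 or 5 libraries, a library was marked where it lay far from the other libraries of its group for the width of that group. Of 114 groups examined 9 were marked, and chance marks about 1 in 20. For named genes these were Mterf1b at 70.51 normalised counts in WTSH5, Cdh3 at 192.7 in WTSH19 and Slc39a8 at 207.1 in WTSH19. For the summed share of a marker list, WTSH19 was marked with 6345 CPM for choroid plexus, 8812 for oligodendrocyte markers and 249.1 for meningeal markers, and was the lowest for presynaptic release genes at 13510. KDSH8 was marked at 245.1 CPM for pituitary markers and WTSH2 at 25740 for structural RNA gene models.

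KDSH6, WTSH4 and WTSH7, the standard-housed libraries not among those compared, also carried more structural RNA signal than the control libraries that were kept. The paper describes heavy mapping to ribosomal RNA in each of these libraries. It left them out for ribosomal RNA contamination or poor correlation within their group. Their high structural RNA signal therefore overlaps the grounds for leaving them out and is not a separate finding. Structural RNA gene models took 55940 CPM in KDSH6, 231800 in WTSH4 and 229400 in WTSH7, against at most 25740 in a WTSH library that was kept. Pituitary markers took 410.0 CPM in KDSH6, 3.131 in WTSH7 and 1.709 in WTSH4, against 2.633 to 2.943 in the WTSH libraries that were kept. WTSH7 was thus only just above that range and WTSH4 below it. The kept KDSH8 and KDSH1 had 245.1 and 9.232.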

How the results depend on the processing

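The number of genes called stayed at 0 in every setting run except DESeq2 on all 24 libraries, which called 1, Pomc (adjusted p = 0.0277). The number with an unadjusted p under 0.05 was 202 of 20187 genes tested, and the number tested differed between settings. It was 374 of 37779 by DESeq2, 790 of 37787 without the filter on low counts and 102 of 16595 with at least 10 counts in every library. On all 24 libraries it was 479 of 19817, and without WTSH2, WTSH19 and KDSH8 535 of 20993. DESeq2 gave 1063 of 38172 on 24 libraries and 353 of 34457 on the 9. Leaving out 1 library at a time gave from 169 of 20119 without KDSH1 to 348 of 20545 without WTSH2, and 314 of 20541 without WTSH5. The median half-width in well-expressed genes, 0.2127, was 0.186 on 24 libraries, 0.1662 on the 9 compared, 0.2863 without the 3 libraries, 0.1838 by DESeq2 on 24 and 0.1634 by DESeq2 on the 9, and 0.2236 to 0.2349 with 1 library left out.

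The median of 27 of 32 lists changed sign in at least 1 of the 9 fits without 1 library, and for 24 of these it lay between -0.10 and 0.05 with all libraries. For the other 3 the median log2 fold change was 0.030 for choroid plexus markers without WTSH19, -0.24 for pituitary markers without KDSH8 and 2.24 for structural RNA gene models without WTSH2. The 5 lists that kept their sign were neurotrophins and receptors, interneuron, blood and meningeal markers and sex check genes. Across the 9 fits the blood median, -0.26, ran from -0.41 to -0.12, and the meningeal median, -0.25, from -0.36 to -0.16. All 5 blood and all 6 meningeal markers were below 0, and 0 had an unadjusted p under 0.05. With 1 library left out, the difference in summed share ran from -2041 to 8.171 CPM for choroid plexus and from -6413 to 2048 CPM for structural RNA. For Rps6ka5 and the 24 named genes 495 alternative values in standard housing and 25 in enriched housing all kept their direction. Another 5 could not be fitted because the gene did not pass a filter. The 24 were chosen for groups without overlap in standard housing. Fits to the same libraries, or to all but 1 of them, could therefore hardly reverse their direction there. No paired analysis was possible because mouse numbers are unique and the groups share none. Depth limits what can be said of genes under 20 normalised counts, where the median half-width was 0.86.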
